A study of Solanum lycopersicum with 18 samples.

Results

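The genes that neighbour RIN on chromosome 5 of tomato (Solanum lycopersicum) were followed through 2 fruit ages in 3 genotypes. RIN (Solyc05g012020) encodes a MADS-box transcription factor that fruits need for ripening. The Solyc identifiers run in chromosome order, so the neighbours were taken as all identifiers from Solyc05g011000 to Solyc05g013990 other than RIN whose level was 1 RPKM or more in 3 or more libraries. RPKM is a read count divided by the length of the gene and by the total reads of its library. The table held 218 such identifiers, and 146 of them passed the minimum, of 35802 identifiers in all and 20658 that passed the same minimum. The tested genotypes were rin, the ripening mutant line LA3754 in an Ailsa Craig background, and TF18, a transgenic line of Ailsa Craig in which FUL1 and FUL2 are suppressed. AC, the cultivar Ailsa Craig itself, was the wild type. Fruits of each genotype were taken at 45 DAP, titled Pink for all 3 genotypes, and at 35 DAP, titled Green, with 3 libraries in each of the 6 groups. The labels give no colour or stage of the rin fruits beyond these titles, and TF18 is a single line. Nor do they tell whether libraries of 1 group were made from different plants, and the p-values below therefore measure only the spread between these libraries.

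The rin allele is known as a deletion that joins RIN to the neighbouring MADS-box gene MACROCALYX, so that mutant fruits make a fused transcript. MACROCALYX acts in sepal and inflorescence development. FUL1 and FUL2 are MADS-box proteins that act with RIN in ripening. A mutant allele that is crossed into another cultivar brings a stretch of linked chromosome with it. The comparisons below ask whether genes beside RIN differed between rin and the other genotypes. The table names genes by Solyc identifier alone, and 0 of these were found in the RefSeq genes at hand. The neighbours are therefore given by identifier and without a function. Which identifier is that of MACROCALYX was not determined, and the fruit tissue could not be checked against marker genes.

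RIN itself was read first. Its level was 2295, 2811 and 1899 RPKM in the 3 rin libraries of 45 DAP, against 26.7, 30.5 and 64.4 RPKM in TF18 and 886, 576 and 730 RPKM in AC. At 35 DAP it was 5.37, 2.29 and 9.26 RPKM in rin, 5.11, 6.50 and 28.7 RPKM in TF18 and 11.6, 13.4 and 32.2 RPKM in AC. The rin libraries thus lay above all others at 45 DAP and below all AC libraries at 35 DAP, where they overlapped TF18. Reads of a fused transcript that keeps most of RIN fall on the same identifier, so these levels do not check the mutant label. Across the 18 libraries the read totals ran from 5740900 to 17334324. The AC libraries of 45 DAP had the 3 lowest numbers of genes at 1 RPKM or more, 14746 to 16041, against 17696 to 19000 elsewhere.

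At 35 DAP the neighbours of RIN gave no difference between rin and AC that passed the test. A call, higher or lower, needed an adjusted p under 0.05 and a log2 fold change of 1 or more in size, taken on the log2(RPKM + 1) scale, which understates changes of low genes. By limma with Benjamini-Hochberg adjustment over all 20658 genes, 0 of the 146 were called higher and 0 lower, where 0.0581% and 0.0339% of all genes tested were. limma-voom on the recovered reads also called 0 and 0. With so few calls over all genes, a count of 0 among 146 does not set the neighbours apart. At an unadjusted p under 0.05, 2.55% of all genes tested passed, a share that is itself below this threshold. Of the 146 neighbours, 2 passed (1.37%). These were Solyc05g012810, at a log2 fold change of 0.50 (SE 0.22), and Solyc05g013480, at 0.59 (SE 0.22), both with an adjusted p of 1 by limma. For 116 of the 146 genes (79.5%) the 95% interval of the fold change lay within -1 to 1 on the log2 scale, against 71.0% of all genes tested. The median SE was 0.24 over the neighbours and 0.27 over all genes tested. A smaller SE narrows the intervals, so the higher share does not by itself show smaller differences. The median log2 fold change was -0.08 over the neighbours and -0.06 over all genes tested. The 3 rin libraries lay all above the 3 AC libraries for 1 neighbour and all below for 9, where 3.74% and 6.68% of all genes tested did so.

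Only Solyc05g013630 and Solyc05g013920 reached an absolute log2 fold change of 1 between rin and AC at 35 DAP. Solyc05g013630 had 7.40, 68.2 and 26.0 RPKM in rin, against 76.0, 130 and 44.7 RPKM in AC. The libraries of rin and AC overlapped and its log2 fold change was -1.63 (SE 1.04). Solyc05g013920 had 2.62, 1.56 and 5.58 RPKM in rin, against 14.2, 4.25 and 9.51 RPKM in AC, which also overlapped, at -1.26 (SE 0.85). Both had an adjusted p of 1 by limma.

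**Figure D1:**
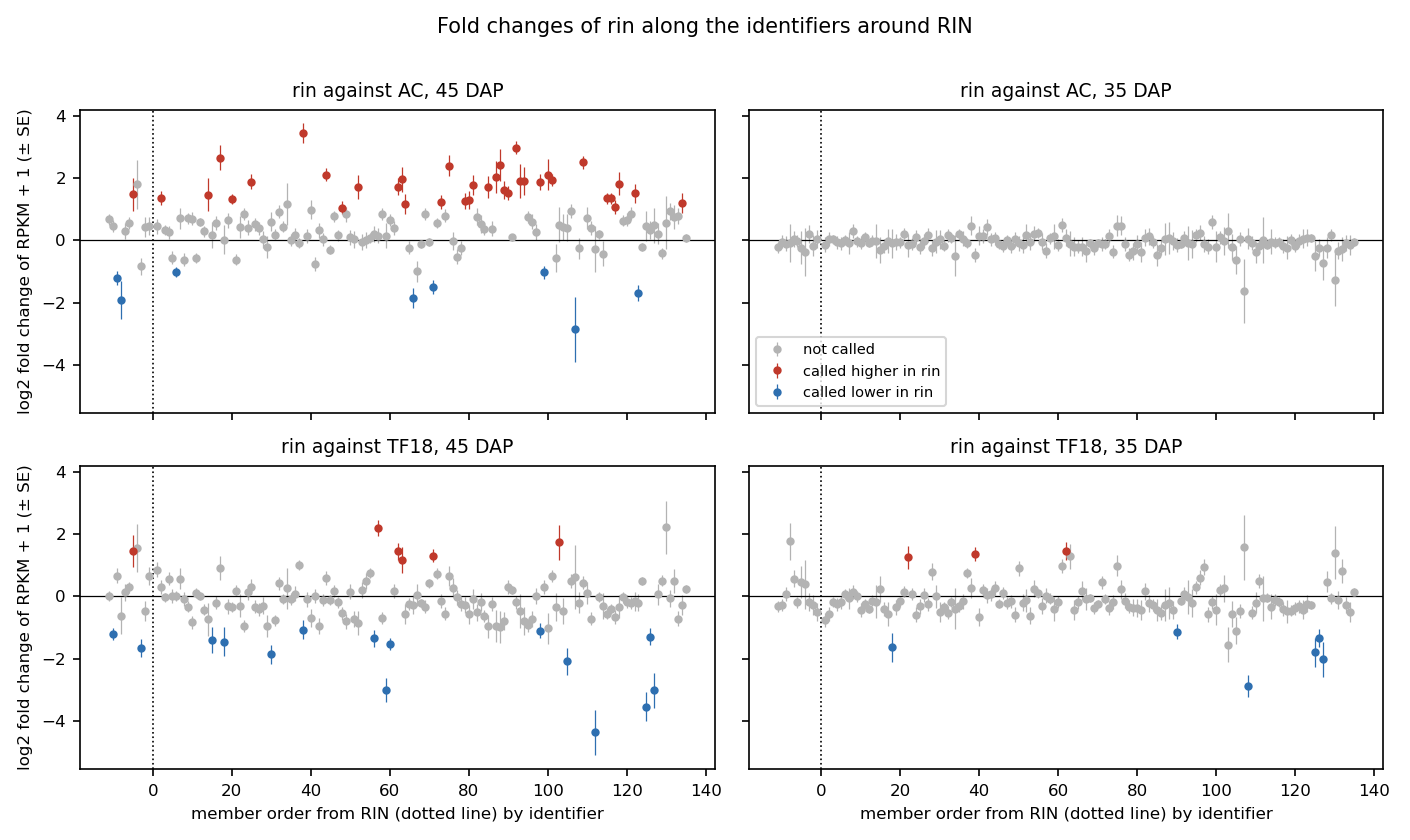
Log2 fold change of RPKM + 1 with its SE for the 146 neighbours in identifier order, with RIN left out at position 0 (dotted line), for rin against AC (top) and rin against TF18 (bottom) at 45 DAP (left) and 35 DAP (right). Red and blue points were called higher and lower in rin; no point was called for rin against AC at 35 DAP.

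The genes right beside RIN showed the same at 35 DAP. The identifier next to RIN on the lower side, Solyc05g012010, passed the minimum, at 4.96 to 15.8 RPKM. That on the higher side, Solyc05g012030, did not pass and never exceeded 1.21 RPKM. Solyc05g012000, just below Solyc05g012010, did not pass either and never exceeded 1.24 RPKM. Of the 3 nearest neighbours with lower identifiers and the 3 with higher ones, each had rin and AC libraries that overlapped at 35 DAP. Their log2 fold changes ran from -0.17 (Solyc05g011990, SE 0.32) to 0.21 (Solyc05g011980, SE 0.28). The narrowest interval was that of Solyc05g012070, at 0.03 (95% interval -0.30 to 0.35). It had 61.6, 49.1 and 57.6 RPKM in rin, against 57.1, 55.3 and 52.2 RPKM in AC.

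At 45 DAP 1 of these 6 genes passed the test between rin and AC. Solyc05g012060 had 4.26, 3.09 and 1.95 RPKM in rin, against 0.816, 0.190 and 0.721 RPKM in AC. All rin libraries lay above all AC libraries, and the log2 fold change was 1.36 (SE 0.23, adjusted p = 0.00025, limma), but 0.55 after quantile normalization and 0.53 with a pseudocount of 5 RPKM, both short of the fold set for a call. Solyc05g011980 had 48.1, 69.4 and 78.3 RPKM in rin, 207, 213 and 191 RPKM in TF18 and 96.5, 184 and 86.0 RPKM in AC. The rin libraries were below both others. The fold change against TF18 passed the test (-1.65, SE 0.28, adjusted p = 0.00063, limma), and that against AC missed the required fold (-0.84, SE 0.28, adjusted p = 0.024, limma), which it reached after TMM-type scaling (-1.45) and without AC replicate 3 (-1.05). Solyc05g012040 rose with age in both rin and AC. It had 18.8, 20.4 and 17.9 RPKM in rin at 45 DAP, 10.1, 10.1 and 9.98 RPKM in TF18 and 16.4, 9.45 and 16.5 RPKM in AC. At 35 DAP it had 5.29, 5.33 and 4.69 RPKM in rin, 6.38, 11.1 and 11.4 RPKM in TF18 and 5.64, 4.43 and 7.47 RPKM in AC. Both rin and AC were therefore higher at 45 DAP in all 3 libraries, with log2 fold changes of 1.71 (SE 0.24, adjusted p = 0.00014) and 1.13 (SE 0.24, adjusted p = 0.00084) by limma. In AC the change was 0.97 without replicate 2 of 35 DAP. Against TF18 the fold change of rin at 45 DAP was 0.85 (SE 0.24, adjusted p = 0.014, limma), short of the required fold, which TMM-type scaling and quantile normalization passed (1.06 and 1.10).

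**Figure D2:**
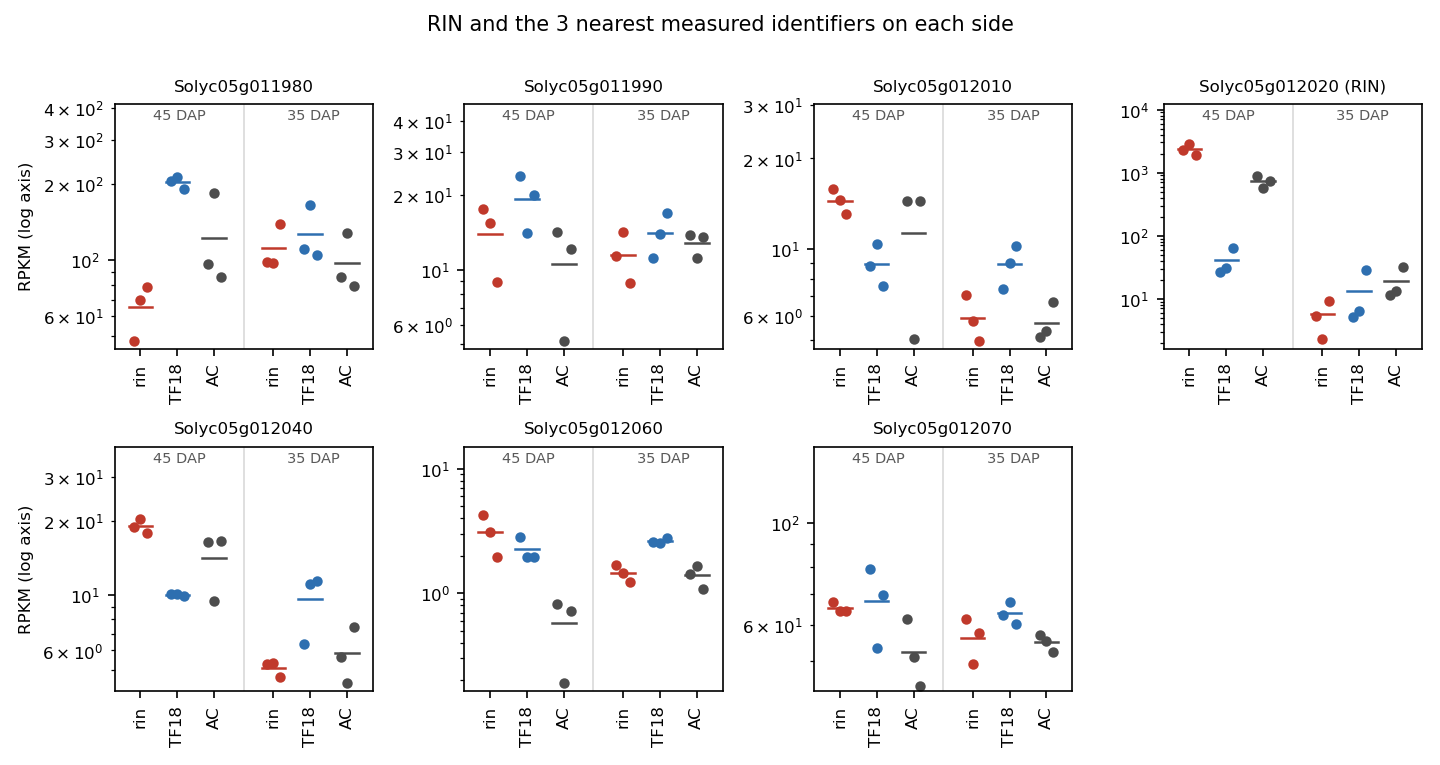
RPKM on a log axis in every library (points) with the mean of each group (bars) for RIN and the 3 nearest neighbours on each side, with 45 DAP left of 35 DAP and rin, TF18 and AC from left to right in each. The rin and AC points overlap at 35 DAP for all 6 neighbours, and Solyc05g012060 is higher in rin than in AC at 45 DAP.

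At 45 DAP many neighbours differed between rin and AC, in shares near those of all genes. Of the 146, 36 were called higher in rin (24.7%), where 25.9% of all genes tested were, and 8 lower (5.48%), where 3.42% were. On the rest of chromosome 5 the shares were 30.6% higher and 1.97% lower. The median log2 fold change was 0.47 over the neighbours and 0.49 over all genes tested. The split hung on the scale. TMM-type scaling, which brought the median of all genes to 0.09, gave 24 higher and 17 lower, and quantile normalization gave 12 and 14. The shares of all genes above are those of the deposited scale, so these counts have no share of their own scale beside them. The AC libraries of 45 DAP were among the shallowest and held the fewest genes at 1 RPKM. The part of that in these counts was not tested.

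Solyc05g012510 had the largest positive difference between rin and AC at 45 DAP. It had 25.8, 20.3 and 19.9 RPKM in rin, 61.4, 38.0 and 44.6 RPKM in TF18 and 0.791, 0.840 and 1.83 RPKM in AC. The AC libraries lay below all others, and rin below TF18. The log2 fold change of rin over AC was 3.44 (SE 0.31, adjusted p = 9.6e-07, limma). In the fruits of 35 DAP it had 73.6, 72.5 and 55.1 RPKM in rin, 80.0, 66.9 and 31.0 RPKM in TF18 and 46.4, 62.8 and 37.8 RPKM in AC, so the 3 genotypes overlapped.

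Solyc05g013380 had 85.8, 94.1 and 78.7 RPKM in rin at 45 DAP, 117, 95.2 and 86.3 RPKM in TF18 and 12, 6.38 and 13.1 RPKM in AC. Only the AC libraries of 45 DAP stood apart, since all 9 libraries of 35 DAP lay between 72.5 and 113 RPKM. The log2 fold change of rin over AC at 45 DAP was 2.97 (SE 0.22, adjusted p = 1.3e-07, limma), and that of rin over TF18 was -0.20 (95% interval -0.66 to 0.27).

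The largest differences in the other direction were those of Solyc05g011890 and Solyc05g012940, among genes with no overlap between the groups. Solyc05g011890 had 25, 8.02 and 19.0 RPKM in rin at 45 DAP, 40.0, 22.6 and 16.4 RPKM in TF18 and 71.7, 71.0 and 46.5 RPKM in AC. The rin libraries were below AC and overlapped TF18. The log2 fold change of rin over AC was -1.91 (SE 0.60, adjusted p = 0.018, limma). The call was lost without rin replicate 2 (adjusted p = 0.086) and without AC replicate 2 (adjusted p = 0.054). Solyc05g012940 had 4.39, 6.27 and 3.63 RPKM in rin, 5.77, 6.93 and 4.83 RPKM in TF18 and 20.8, 10.2 and 34.3 RPKM in AC. The AC libraries were above all others, at -1.86 for rin over AC (SE 0.32, adjusted p = 0.0003, limma).

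Against TF18, 3 neighbours were called higher in rin at 35 DAP and 6 lower, where 2.62% and 2.89% of all genes tested were. These counts are 2.05% and 4.11% of the 146. They were small and moved with single libraries. No call was left with only these groups in the model and the replicate number as a block, as described in the last section. Without rin replicate 1 or 2 the higher count was 5. Without rin replicate 2 or 3 or TF18 replicate 2 the lower count was 3, and without TF18 replicate 3 it was 2. TMM-type scaling turned the split round, to 5 higher and 2 lower, while the shares of all genes above are those of the deposited scale.

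Solyc05g012820 was higher in rin than in TF18 at both ages. At 45 DAP it had 24.0, 34.5 and 19.4 RPKM in rin, 5.71, 10.5 and 10.7 RPKM in TF18 and 7.46, 8.93 and 5.07 RPKM in AC. At 35 DAP it had 13.4, 14.9 and 20.4 RPKM in rin, 4.54, 4.48 and 6.81 RPKM in TF18 and 17.8, 13.8 and 13.9 RPKM in AC. The rin libraries lay above TF18 at both ages, and above AC only at 45 DAP. Over TF18 the log2 fold change was 1.44 at 45 DAP (SE 0.28, adjusted p = 0.0014) and 1.46 at 35 DAP (SE 0.28, adjusted p = 0.0054), by limma. Over AC it was 1.72 at 45 DAP (SE 0.28, adjusted p = 0.00019, limma), and 0.90 after quantile normalization, short of the required fold. These comparisons share the rin libraries. At 45 DAP 3 neighbours (2.05%) were called higher in rin than in both TF18 and AC, where 2.05% of all genes tested were. The others were Solyc05g011960 and Solyc05g012850.

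Solyc05g012530 was the other gene named higher in rin than in TF18 at 35 DAP, from few reads. It had 0.858, 1.98 and 2.74 RPKM in rin, 0.234, 0 and 0 RPKM in TF18 and 2.25, 2.95 and 3.24 RPKM in AC. This was 25 reads pooled over rin and 1 over TF18, a ratio of 19.2 per total read (exact 95% interval 3.14 to 789, counting error only). Its log2 fold change was 1.36 (SE 0.23, adjusted p = 0.0026, limma), 0.43 with a pseudocount of 5 RPKM, and no longer called when only the rin and TF18 libraries of 35 DAP entered the model (adjusted p = 0.069).

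Solyc05g013640 had the largest deficit in rin against TF18 at 35 DAP. It had 36.6, 34.9 and 45.4 RPKM in rin, 175, 511 and 278 RPKM in TF18 and 34.6, 49.2 and 30.7 RPKM in AC. The TF18 libraries stood above all the others of that age, while rin and AC overlapped. The log2 fold change of rin over TF18 was -2.88 (SE 0.34, adjusted p = 0.00016, limma). At 45 DAP the 3 genotypes overlapped, at 107, 128 and 135 RPKM in rin, 118, 123 and 198 RPKM in TF18 and 223, 130 and 110 RPKM in AC. Solyc05g013870 had 4.08, 1.52 and 2.61 RPKM in rin at 35 DAP, 5.13, 14.2 and 32.6 RPKM in TF18 and 2.46, 5.87 and 7.93 RPKM in AC. Its log2 fold change over TF18 was -2.03 (SE 0.56, adjusted p = 0.039, limma). That call was lost without rin replicate 2 or 3 or TF18 replicate 2 or 3 (adjusted p = 0.12, 0.10, 0.12 and 0.17), under TMM-type scaling (0.055), quantile normalization (0.051), no filter on low values (0.056), only the groups compared (0.12) and limma-voom (0.063).

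At 45 DAP 6 neighbours were called higher in rin than in TF18 and 15 lower, where 5.16% and 12.3% of all genes tested were. The members' shares were 4.11% and 10.3%. The higher count was 3 without rin replicate 2 and 2 without TF18 replicate 1. Quantile normalization gave 11 higher and 10 lower, and TMM-type scaling 9 and 13, while the shares of all genes above are those of the deposited scale. At both ages 1 neighbour was called higher in rin than in TF18 and 4 lower, where 0.358% and 1.56% of all genes tested were. For rin against AC at both ages the counts were 0 and 0, where 0.0436% and 0.0145% were.

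Solyc05g012770 had 29.1, 32.1 and 16.3 RPKM in rin at 45 DAP, 6.21, 4.05 and 3.96 RPKM in TF18 and 26.1, 18.8 and 22.4 RPKM in AC. At 35 DAP all 9 libraries lay between 2.62 and 4.46 RPKM. The gene was thus high in rin and AC fruits of 45 DAP and low in all others. The log2 fold change of rin over TF18 at 45 DAP was 2.19 (SE 0.25, adjusted p = 2.8e-05, limma), and that of rin over AC was 0.15 (SE 0.25, adjusted p = 0.65, limma).

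Solyc05g013530 had 110, 177 and 192 RPKM in rin at 45 DAP, 22.6, 95.7 and 44.5 RPKM in TF18 and 173, 83.9 and 90.3 RPKM in AC. The rin libraries lay above TF18 and overlapped AC, at 1.74 over TF18 (SE 0.57, adjusted p = 0.032, limma). This call was lost without rin replicate 2 or 3 (adjusted p = 0.090 and 0.092), without TF18 replicate 1 or 3 (0.15 and 0.073) and with only the groups compared (0.055).

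Solyc05g013690 and Solyc05g013850 had the largest deficits in rin against TF18 at 45 DAP. Solyc05g013690 had 0.163, 0 and 0.366 RPKM in rin, 65.2, 10.2 and 18 RPKM in TF18 and 0.330, 0.15 and 0.873 RPKM in AC. This was 8 reads pooled over rin and 1392 over TF18, and the log2 fold change was -4.37 (SE 0.73, adjusted p = 0.00056, limma). Solyc05g013850 had 3.30, 0.470 and 2.63 RPKM in rin, 51.4, 29.2 and 21.9 RPKM in TF18 and 0.481, 1.39 and 1.49 RPKM in AC, at -3.54 for rin over TF18 (SE 0.47, adjusted p = 0.0001, limma). For both genes rin and AC overlapped and TF18 lay above both. Solyc05g013870, named above, followed the same order at 45 DAP. It had 1.04, 0.109 and 0.860 RPKM in rin, 25.9, 8.82 and 7.50 RPKM in TF18 and 0.121, 0.147 and 0.214 RPKM in AC, at -3.02 for rin over TF18 (SE 0.56, adjusted p = 0.0011, limma).

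**Figure D3:**
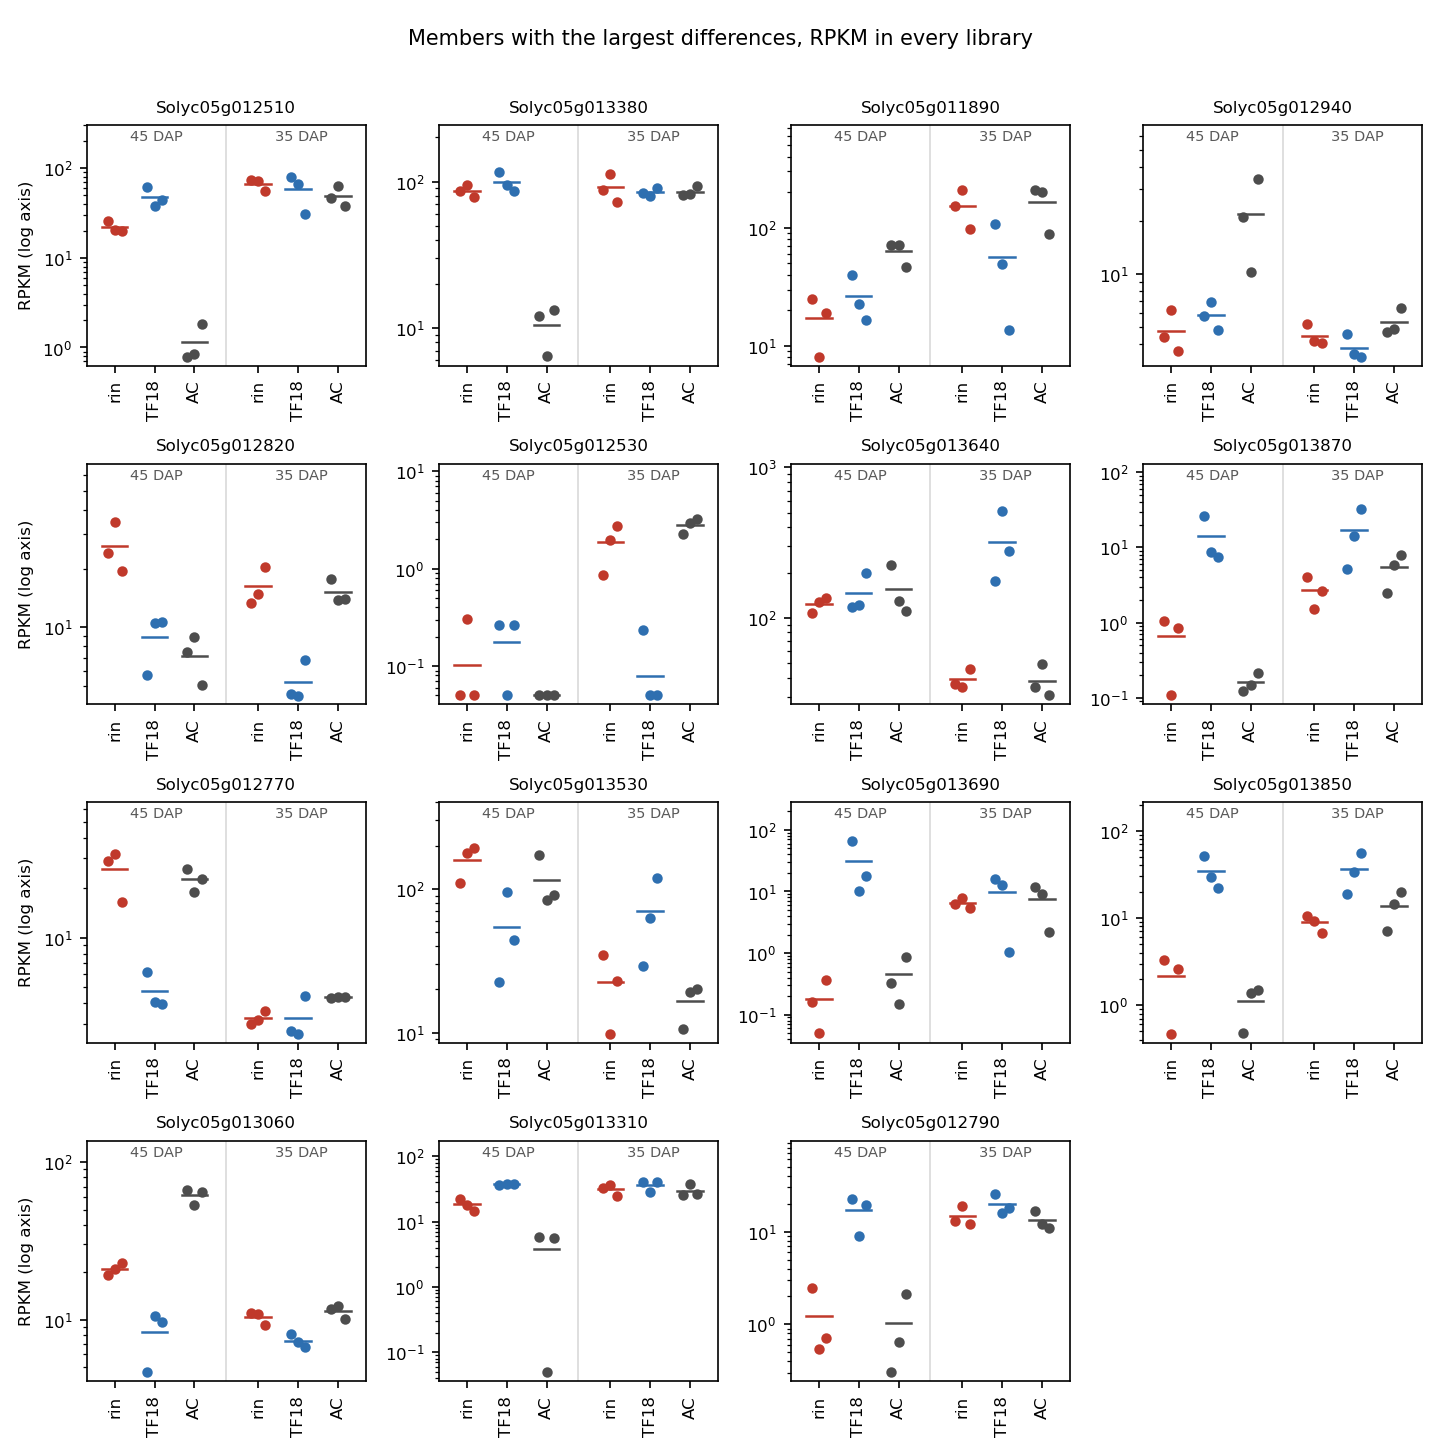
RPKM on a log axis in every library (points) with the mean of each group (bars) for the 15 named neighbours not next to RIN, with 45 DAP left of 35 DAP and rin, TF18 and AC from left to right in each; values under 0.05 RPKM are drawn at 0.05. At 35 DAP rin and AC overlap in all panels but that of Solyc05g012770, where the 3 rin libraries lie just below AC.

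With age, from 35 to 45 DAP, 12 neighbours rose in rin and 11 fell, where 7.49% and 8.84% of all genes tested did. The neighbours' shares were 8.22% and 7.53%. The falls were 7 without rin replicate 2 of 45 DAP. In TF18 0 rose and 0 fell by limma, where 0.566% and 0.145% of all genes tested did, and limma-voom also gave 0 and 0. At an unadjusted p under 0.05, 16 of the 146 changed with age in TF18 (11.0%, against 9.72% of all genes tested). In AC 14 rose and 54 fell, where 7.54% and 34.2% of all genes tested did, and the neighbours' shares were 9.59% and 37.0%. TMM-type scaling gave 30 rises and 36 falls in AC, and quantile normalization 24 and 19. The median change of all genes in AC was -0.58 on the deposited scale and -0.17 and 0.08 on these 2 scales. The shares of all genes above are those of the deposited scale.

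The genes that changed most in AC were these. Solyc05g013530, whose AC values of 45 DAP are given above, had 10.6, 19.1 and 20.2 RPKM in AC at 35 DAP and rose by 2.70 (SE 0.57, adjusted p = 0.00082, limma). In rin it had 34.8, 9.88 and 22.7 RPKM at 35 DAP and rose by 2.90 (SE 0.57, adjusted p = 0.0016, limma). In TF18, at 29.0, 62.7 and 120 RPKM at 35 DAP, its change was -0.39 (SE 0.57, adjusted p = 0.97, limma) and the ages overlapped. Solyc05g013060 had 66.4, 53.3 and 65.0 RPKM in AC at 45 DAP and 11.7, 12.2 and 10.1 RPKM at 35 DAP, a rise of 2.34 (SE 0.22, adjusted p = 6.2e-07, limma). In rin it had 19.1, 21 and 22.8 RPKM at 45 DAP and 11.1, 10.9 and 9.22 RPKM at 35 DAP. That change of 0.95 (SE 0.22, adjusted p = 0.005, limma) was just short of the required fold.

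Of the falls in AC, that of Solyc05g012510 was -4.54 (SE 0.31, adjusted p = 3.2e-08, limma), from the values given above. Solyc05g013310 had 5.87, 0 and 5.56 RPKM in AC at 45 DAP and 25.3, 38.2 and 26.5 RPKM at 35 DAP, at -3.10 (SE 0.51, adjusted p = 0.00011, limma). In rin it had 22.1, 18.2 and 14.7 RPKM at 45 DAP and 32.7, 36.8 and 25.1 RPKM at 35 DAP, which did not overlap, at -0.75 (SE 0.51, adjusted p = 0.30, limma). That SE is shared by all groups, AC at 45 DAP included, and is not the spread of the rin libraries alone.

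In rin the largest rises were those of Solyc05g013530 and of Solyc05g012770 (2.60, SE 0.25, adjusted p = 9.7e-06, limma). The largest falls were those of Solyc05g011890 and Solyc05g012790. Solyc05g011890 had 154, 209 and 96.7 RPKM in rin at 35 DAP, all above its values of 45 DAP, at -3.13 (SE 0.60, adjusted p = 0.0015, limma). Solyc05g012790 had 2.46, 0.547 and 0.718 RPKM in rin at 45 DAP and 13.1, 19.1 and 12 RPKM at 35 DAP, at -2.88 (SE 0.40, adjusted p = 0.00013, limma). AC gave nearly the same pair of levels, 0.303, 0.644 and 2.14 RPKM at 45 DAP and 16.9, 12.1 and 11.0 RPKM at 35 DAP, at -2.90 (SE 0.40, adjusted p = 2e-05, limma). TF18 had 22.7, 9.0 and 19.3 RPKM at 45 DAP and 25.4, 15.8 and 18 RPKM at 35 DAP, which overlapped, at -0.27 (SE 0.40, adjusted p = 0.97, limma).

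The changes with age in rin and AC rest on separate libraries. Of the rises, 5 neighbours were called in both (3.42%), where 2.74% of all genes tested were. These 5 are 41.7% of the 12 in rin and 35.7% of the 14 in AC, against 36.6% and 36.4% over all genes. Of the falls, 9 were called in both (6.16%), where 7.96% of all genes tested were. These 9 are 81.8% of the 11 in rin and 16.7% of the 54 in AC, against 90.0% and 23.2% over all genes. In opposite directions 0 neighbours were called, where 0.581% of all genes tested were. Across the 146 genes the 2 changes had a Pearson's r of 0.62, against 0.65 over all genes tested, as a description across genes that are not independent. The change with age itself differed between rin and AC by a test of the difference in 42 neighbours. It was higher in rin in 36 (24.7%) and lower in 6 (4.11%), where 23.2% and 2.97% of all genes tested were.

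**Figure D4:**
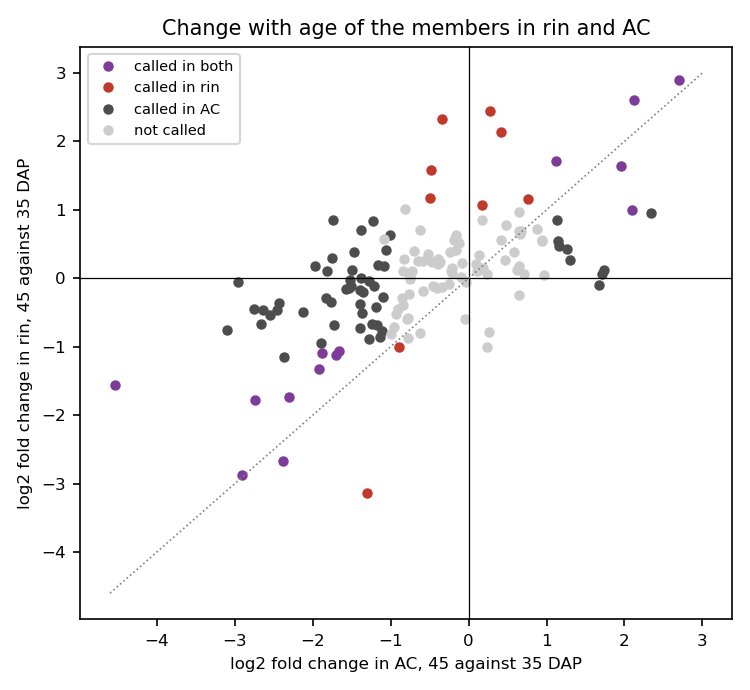
Log2 fold change of RPKM + 1 from 35 to 45 DAP in rin (vertical axis) against that in AC (horizontal axis), with 1 point for each of the 146 neighbours, coloured by where the change was called; the dotted line marks equal change. Most called points lie left of 0 and above the dotted line, since 54 neighbours fell in AC and 11 in rin.

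Along the identifiers, 11 neighbours lay at lower and 135 at higher numbers than RIN, because the table's identifiers in this range start at Solyc05g011810. At 35 DAP no stretch held a call between rin and AC. Among the 20 neighbours nearest to RIN the median absolute log2 fold change was 0.08. It was 0.12 among the next 40 and 0.15 among the 86 beyond, and 0.16 over all genes tested. At 45 DAP the nearest 20 held 2 calls higher and 2 lower in rin than in AC, the next 40 held 7 and 1, and the 86 beyond held 27 and 5. Over all genes tested, 25.9% were called higher and 3.42% lower. Counts of 2 are too small to show a pattern with distance. In stretches of 500 identifier numbers, in order from the first that holds neighbours, the higher calls were 1 of 10, 5 of 37, 7 of 31, 15 of 33 and 8 of 35, beside 25.9% of all genes tested. The lower calls were 2, 1, 1, 2 and 2 in the same order, beside 3.42% of all genes tested. The median log2 fold changes of these stretches were 0.44, 0.44, 0.16, 0.79 and 0.50, beside 0.49 over all genes. Fold changes of adjacent neighbours had a Pearson's r of -0.02 over 145 pairs for rin against AC at 35 DAP and 0.11 at 45 DAP, against 0.10 and 0.16 for adjacent genes over the whole table, as a description. For 0 of the 146 did all 6 rin libraries lie above the 12 others, and for 0 did they lie below, where 0.0581% and 0.0242% of all genes tested did.

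Calls between rin and AC at 35 DAP were found elsewhere on chromosome 5. This was looked at after the counts above were seen. Of the 19 genes called over the whole table, 8 carried identifiers of chromosome 5, of 1365 tested there (0.586%), and each other chromosome held 0 to 2. None of the 8 was among the 146, but at a share of 0.586% a count of 0 among 146 genes does not set them apart. Of the 17 genes of the whole table whose 6 rin libraries all lay above or all below the 12 others, 8 were also on chromosome 5. These calls depended on the model, and 5 of 7 calls were on chromosome 5 when only the groups compared entered it. With the replicate number as a block as well, 0 calls were left over the table.

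The called gene nearest to the 146 on the lower side was Solyc05g009200, 117 tested genes away. It was at 0, 0 and 0 RPKM in rin at 45 DAP, 7.70, 8.74 and 5.45 RPKM in TF18 and 11.3, 9.18 and 10.4 RPKM in AC. In the younger fruits it was at 0.125, 0 and 1.2 RPKM in rin, 4.82, 4.90 and 5.28 RPKM in TF18 and 7.78, 5.44 and 9.31 RPKM in AC. All 6 rin libraries were below all others, with a log2 fold change over AC at 35 DAP of -2.63 (SE 0.27, adjusted p = 0.00017, limma). On the higher side it was Solyc05g014500, 32 tested genes away. That gene had 29.9, 32.3 and 17.9 RPKM in rin at 45 DAP, 16.7, 13.5 and 12.7 RPKM in TF18 and 5.32, 2.58 and 8.45 RPKM in AC. In fruits of 35 DAP it had 32.6, 27.8 and 28.7 RPKM in rin, 12, 11.2 and 13.3 RPKM in TF18 and 8.55, 9.91 and 8.70 RPKM in AC. All 6 rin libraries were above all others, at 1.61 over AC at 35 DAP (SE 0.28, adjusted p = 0.047, limma). The 6 rin libraries also lay above all others for Solyc05g014490, 31 tested genes away. It was not called, at 1.51 over AC at 35 DAP (SE 0.29, adjusted p = 0.089, limma).

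**Figure D5:**
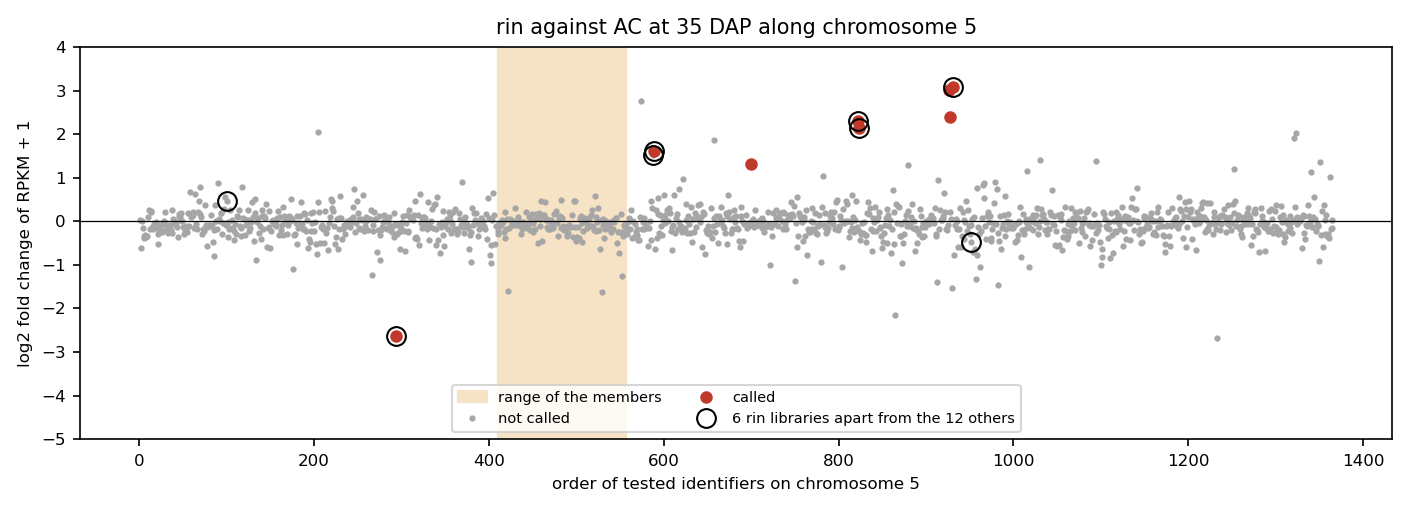
Log2 fold change of RPKM + 1 for rin against AC at 35 DAP (vertical axis) for the tested genes of chromosome 5 in identifier order (horizontal axis), with the range of the neighbours shaded. The 8 called genes (red) and the 8 whose 6 rin libraries lie apart from the 12 others (rings) all fall outside the shaded range.

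The most abundant neighbour was Solyc05g012160, at 432 ± 15.4 RPKM in rin, 429 ± 13.2 RPKM in TF18 and 288 ± 49.9 RPKM in AC at 45 DAP (SD, n = 3 each). At 35 DAP it was at 355 ± 21.4 RPKM in rin, 470 ± 33.2 RPKM in TF18 and 375 ± 18.4 RPKM in AC (SD, n = 3 each). At 45 DAP the 146 genes together took 0.357 ± 0.0364% of the summed RPKM in rin, 0.416 ± 0.0147% in TF18 and 0.285 ± 0.0388% in AC (SD, n = 3 each). At 35 DAP the shares were 0.331 ± 0.00148% in rin, 0.408 ± 0.0273% in TF18 and 0.345 ± 0.0098% in AC (SD, n = 3 each). Of the 146, 95 had at least 1 RPKM in all 18 libraries, and none reached it in the libraries of 1 group only. The lowest that passed, Solyc05g013880, had 3 such libraries, with 1.16 RPKM in the lowest of them. The nearest that did not pass, Solyc05g013760, had 0.921 RPKM in its library of the same rank. Of the 72 that did not pass, 28 were listed at 0 in every library and 10 reached 1 RPKM in 1 or 2 libraries, up to 2.34 RPKM.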

How the data were processed

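The authors deposited a table of RPKM values, read counts scaled by length and library total, for 35802 Solyc identifiers, with a column for each of 18 libraries. The submitters' processing notes list CASAVA 1.8.1 and Bowtie2 and assign them no step. For the genome build, the annotation and the read counter, names were not given in the sources used here. The titles gave each library its group.

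Read counts were recovered from the whole steps of the RPKM values, with lengths assumed to be multiples of 3 bases, as in coding sequences. For each gene the shortest length that made its values whole reads was taken, so the share given next is partly set by that choice. Within a tolerance of 0.02 reads, 100.0% of values above 0 were whole reads, and totals ran from 5740900 to 17334324 per library. Intervals of read ratios cover counting error only.

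The 20658 genes that reached 1 RPKM in 3 or more libraries entered limma 3.58.1 (R 4.3.3) as log2(RPKM + 1). The model held 6 group means over all libraries and moderated variances along a trend. Two-sided p-values were adjusted by the Benjamini-Hochberg method over all genes tested. In a test on simulated data (rin against AC at 45 DAP, 20658 genes), limma recovered 91% of 100 log2 changes of 1.5 and 96% of 100 of 3, among genes of middle or high level, and called 8 unchanged genes. The simulation had no shift of scale and far fewer changed genes than were called in the data. It did not cover 35 DAP, and its recovery does not carry over to that age. Alternatives were other scales (a trimmed mean of log ratios, called TMM-type scaling, and quantile normalization), a pseudocount of 5 RPKM, no filter, only the groups compared, the replicate number as a block and leaving out each library. limma-voom on the recovered reads, which called 18 genes between rin and AC at 35 DAP over the table, was added after seeing the data. Plots used Python 3.11.15 and matplotlib 3.10.9.

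Named genes were the 3 neighbours of RIN on each side that passed the minimum, the 2 called genes with the largest difference each way in each comparison of rin whose libraries did not overlap, and the 2 that rose and 2 that fell most with age in AC and in rin. The region, the comparisons and this rule were chosen with earlier results of these data known.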

Additional observations from a re-analysis of the deposited data

Results flagged for a closer look

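For 7 of the named neighbours of RIN the change from 35 to 45 DAP differed between rin and AC in a limma test of that difference, with p-values adjusted over all 20658 genes tested. Apart from Solyc05g012060, these genes were named for large differences or changes in the same libraries. For them the test is not separate support. In 5 of the 7 the change was higher in rin than in AC. The difference was 2.97 on the log2(RPKM + 1) scale for Solyc05g012510 (SE 0.44, adjusted p = 0.00026), which fell by 1.56 in rin and by 4.54 in AC. It was 2.90 for Solyc05g013380 (SE 0.31, adjusted p = 1.6e-05), whose change was -0.06 in rin and -2.96 in AC. For Solyc05g013310 it was 2.35 (SE 0.72, adjusted p = 0.023), from -0.75 in rin and -3.10 in AC, with the call lost on both other scales and without any of 3 single libraries. Solyc05g012820 gave 1.64 (SE 0.39, adjusted p = 0.0063), from 0.63 in rin and -1.01 in AC, with the call lost on both other scales. Solyc05g012060, among the nearest to RIN, gave 1.32 (SE 0.32, adjusted p = 0.0071), from 0.70 in rin and -0.62 in AC, with the call lost after quantile normalization and with a pseudocount of 5 RPKM.

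In the other 2 the change was lower in rin than in AC. Solyc05g012940 gave -1.65 (SE 0.45, adjusted p = 0.012), from 0.06 in rin and 1.71 in AC. Solyc05g013060 gave -1.39 (SE 0.31, adjusted p = 0.0045), from 0.95 in rin and 2.34 in AC. Differences of this kind were called for 23.2% of all genes tested in the first direction and 2.97% in the second. Those genes were not picked for size, so these shares are no yardstick for the named ones. Groups of 3 libraries were not tested for single libraries that stand apart.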

How the results depend on the processing

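Between rin and AC at 35 DAP, 0 neighbours were called in either direction under every alternative run. These settings called only 0 (replicate block) to 21 genes (TMM-type scaling and no filter) over the whole table. With so few calls, a count of 0 among the neighbours was likely under any setting and does not set them apart. Also, 0 had their 6 rin libraries apart from the others under the scalings and library omissions run for that count. On the deposited scale 17 genes of the whole table did, so this 0 was likely too. Other counts moved by over 1.5 times. For rin against AC at 45 DAP the higher count of 36 became 12 with quantile normalization and 23 with only the groups compared, and the lower count of 8 became 17 under TMM-type scaling, 14 under quantile normalization and 5 with a pseudocount of 5 RPKM. For rin against TF18 at 35 DAP the counts of 3 higher and 6 lower became 5 and 2 with TMM-type scaling, 1 and 3 with the pseudocount of 5 and 1 and 2 with only the groups compared. At 45 DAP the 6 higher became 11 with quantile normalization and the 15 lower became 7 with the pseudocount of 5. With age in rin, 11 falls became 4 with the pseudocount of 5 and 20 with limma-voom. In AC, 14 rises became 30 under TMM-type scaling and 24 under quantile normalization, and 54 falls became 19 with quantile normalization and 23 with the pseudocount of 5. Apart from those of rin against AC at 35 DAP, these counts have no share of all genes under the same setting beside them. The causes were not tested.

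Same-numbered libraries did not deviate together in any of these comparisons (1 or more of the 3 correlations was below 0.1 each time), so the numbers were not taken as pairs. In TF18 and AC of 35 DAP, a pair not compared here, all 3 were over 0.1 (0.28, 0.36 and 0.47). The replicate block gave 16 higher and 7 lower for rin against AC at 45 DAP, 0 and 0 for rin against TF18 at 35 DAP, where Solyc05g012820 (adjusted p = 0.081) and Solyc05g013640 (0.080) were among the calls lost, and 6 and 14 at 45 DAP. For rin against AC at 35 DAP the block left 0 of the 8 calls on chromosome 5, those of Solyc05g009200 and Solyc05g014500 included, and 0 of the 19 over the table. Without the block, calls on chromosome 5 were 9 of 21 under TMM-type scaling, 9 of 20 after quantile normalization, 6 of 12 with the pseudocount of 5, 8 of 21 with no filter and 10 of 18 with limma-voom, and 6 to 8 of 13 to 19 with a library left out.

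Leaving out each library in turn gave 29 to 43 higher and 6 to 8 lower for rin against AC at 45 DAP. For rin against TF18 it gave 2 to 5 and 2 to 7 at 35 DAP, and 2 to 7 and 13 to 16 at 45 DAP. With age it gave 9 to 13 rises and 7 to 13 falls in rin, 0 to 1 and 0 to 0 in TF18 and 13 to 20 and 49 to 59 in AC. No share of all genes under the same setting stands beside these counts or the neighbours' counts with the replicate block. Whether the shifts are particular to the neighbours was therefore not shown.

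Of the differences in change with age, that of Solyc05g012060 was no longer called with quantile normalization (0.40) and the pseudocount of 5 (0.52), that of Solyc05g012820 under TMM-type scaling (1.03) and quantile normalization (0.75), and that of Solyc05g013310 with both (1.96 and 1.61). With single libraries left out they ran from 1.12 to 1.54, from 1.42 to 1.82 and from 1.43 to 2.82. The last was lost without rin replicate 3 of 35 DAP, rin replicate 1 of 45 DAP or AC replicate 2 of 35 DAP. Of the single values of named neighbours over all alternatives, 1831 kept their side of the threshold, 62 lost the call, 18 gained it and none changed sign while called. Values near 0 RPKM rest on few reads, and the shallowest library held 5740900.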
